A study of Mus musculus with 6 samples.

Results

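The peroxiredoxins, superoxide dismutases and catalase are the enzymes that remove superoxide and hydrogen peroxide. The set was chosen by gene symbol as Sod1, Sod2, Cat, Prdx1 to Prdx6 and Srxn1, the gene of sulfiredoxin, and all 10 were measured among 27381 genes. The rule uses no measured value, but the set was chosen with earlier results of these arrays known. The arrays measured whole-liver RNA of C57BL/6J mice, which the paper describes as wild-type males. Every mouse ate the NASH diet, which models nonalcoholic steatohepatitis, from 10 weeks of age for 32 weeks. Of its energy, 40% came as fat from palm oil and 20% as fructose, and it held 2% cholesterol. In the AAV-Glrx group, an adeno-associated virus carried tagged mouse Glrx, the gene of glutaredoxin-1, under the hepatocyte-specific promoter of Serpina7. The AAV control group received the same kind of virus with an empty cassette. Each mouse received 1e+12 vector genomes in week 20, and its liver was taken 12 weeks later. In each group the RNA of 5 or 6 mice was combined into 3 pools, one for each array. The sources used here do not say which mice went into which pool. The limma p-values set a difference against the spread between these pools, which limma moderates toward the spread of all genes. No chow-fed group was analysed here, so all values are levels in the diseased liver.

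Superoxide dismutases turn superoxide into hydrogen peroxide and oxygen. Catalase, which is abundant in liver peroxisomes, breaks hydrogen peroxide down to water. Peroxiredoxins reduce peroxides with a reactive cysteine, which is then recycled mostly by thioredoxin. In typical 2-Cys peroxiredoxins this cysteine can be overoxidized to a sulfinic acid, which sulfiredoxin reduces again. Glutaredoxin-1 removes glutathione from protein cysteines and acts on thiols rather than on peroxide itself. The comparison here asks whether the messages of the enzymes that remove superoxide and peroxide differed when hepatocytes carried additional Glrx. It concerns mRNA and says nothing of protein or enzyme activity.

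The start sites of 9 of the 10 genes had a promoter window in RefSeq (GRCm38.p6), running from 250 bases before to 50 bases after the start. The windows of Srxn1 and Prdx1 are shown because they hold a motif of the oxidative stress response, and that of Sod2 because its groups were the ones that did not overlap. The letters TGANTCAGC, where N is any base, make up the core of the site bound by NRF2, the transcription factor of the antioxidant response, with its small Maf partners. With C or G at N, these letters also hold a complete AP-1 site. Searched on both strands, it was found in 1.19% of 32851 windows and in 2 of the 9, those of Srxn1 and Prdx1. Capitals mark it in both sequences, on the forward strand of Srxn1 at position -45 from the start site and on the reverse strand of Prdx1 at position -133 from it.
Srxn1 (chr2:152105274-152105573, + strand): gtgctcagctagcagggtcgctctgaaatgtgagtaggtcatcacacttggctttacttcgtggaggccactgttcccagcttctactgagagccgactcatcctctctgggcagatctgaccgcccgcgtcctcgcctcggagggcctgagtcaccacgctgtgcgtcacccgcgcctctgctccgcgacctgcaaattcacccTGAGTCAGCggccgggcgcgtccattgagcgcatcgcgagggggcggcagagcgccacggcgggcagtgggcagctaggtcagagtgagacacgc
Prdx1 (chr4:116685349-116685648, + strand): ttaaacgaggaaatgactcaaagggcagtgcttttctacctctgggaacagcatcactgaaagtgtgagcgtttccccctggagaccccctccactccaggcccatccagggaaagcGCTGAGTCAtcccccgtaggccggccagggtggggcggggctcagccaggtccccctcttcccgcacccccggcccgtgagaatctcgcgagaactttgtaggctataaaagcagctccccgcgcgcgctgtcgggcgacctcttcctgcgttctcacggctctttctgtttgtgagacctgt
The GC box GGGCGG, bound by Sp1, was found on either strand in 35.7% of all windows and in 9 of 9 here. Sod2 held 4 matches on the forward strand, in capitals, and no NRF2 motif.
Sod2 (chr17:13007589-13007888, + strand): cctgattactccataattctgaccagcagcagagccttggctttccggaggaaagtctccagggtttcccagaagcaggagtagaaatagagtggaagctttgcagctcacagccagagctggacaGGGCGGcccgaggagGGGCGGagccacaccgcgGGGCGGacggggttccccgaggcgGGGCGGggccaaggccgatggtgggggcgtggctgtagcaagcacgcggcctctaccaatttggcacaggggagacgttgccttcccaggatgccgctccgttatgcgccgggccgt
The TATA letters TATAAA were found in 13.6% of all windows and in 3 of the 9, those of Prdx1, Sod1 and, on the reverse strand, Prdx3. A match is a description of the letters and was not tested as a binding site.

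Glrx, the gene the virus carries, had 6.60, 7.77 and 7.24 on the log2 scale in the AAV-Glrx pools, against 6.11, 6.03 and 5.66 in the AAV control pools. The groups did not overlap, and AAV-Glrx 1 was the lowest of its group. The difference was 1.27 (SE 0.27, n = 3 each), with an adjusted p of 0.847 by limma with Benjamini-Hochberg adjustment over all genes. Among 27381 genes, 1 passed the threshold of 0.1, which is 0.00365% of all genes. This was Zbtb16, lower by 2.12 on the log2 scale in AAV-Glrx pools (adjusted p = 0.0896, limma). At an unadjusted p under 0.05 there were 1579 genes (5.77%), and at 2981 genes (10.9%) the 3 AAV-Glrx pools did not overlap the 3 AAV control pools. Array medians lay between 3.893 and 3.949, and arrays correlated with each other at 0.987 to 0.991 across genes. Hepatocyte markers averaged 11.15 to 11.20 in AAV-Glrx pools and 11.14 to 11.19 in AAV control pools, and 0 of 6 had an unadjusted p under 0.05. Among markers of other liver cells, 3 had an unadjusted p under 0.05, against 5.77% of all genes. All 3 had a lower mean in AAV-Glrx pools. They were Lyve1 of sinusoidal endothelium (-0.40), Cd79a of B cells (-0.61) and Cd3e of T cells (-0.30), each with an adjusted p of 0.847 (limma). Each was 1 marker of its list, which held 5 for endothelium, 4 for B cells and 4 for T cells. The lists without such a marker held 6 for Kupffer cells and macrophages and 6 for stellate cells and fibroblasts. They held 4 for cholangiocytes, 4 for neutrophils and 5 measured for erythroid cells. Of the endothelial means, 2 were higher and 3 lower in AAV-Glrx pools, and 4 of 4 were lower for B cells and for T cells. Cd79a averaged 3.52 in AAV-Glrx pools and 4.13 in AAV control pools, near the median of all values at 3.929.

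None of the 10 genes passed the threshold. Adjusted p-values ran from 0.872 to 0.988 (limma), and 0 of 10 had an unadjusted p under 0.05, against 5.77% of all genes. The mean was higher in AAV-Glrx pools for 6 genes and lower for 4. Their median difference was 0.021 on the log2 scale, against -0.0012 over all genes. The median size of the difference, regardless of sign, was 0.056 for the 10 genes and 0.089 over all genes, whose levels are mostly lower. The groups did not overlap for 1 of 10, Sod2, against 10.9% of all genes, a share close to the background.

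**Figure D1:**
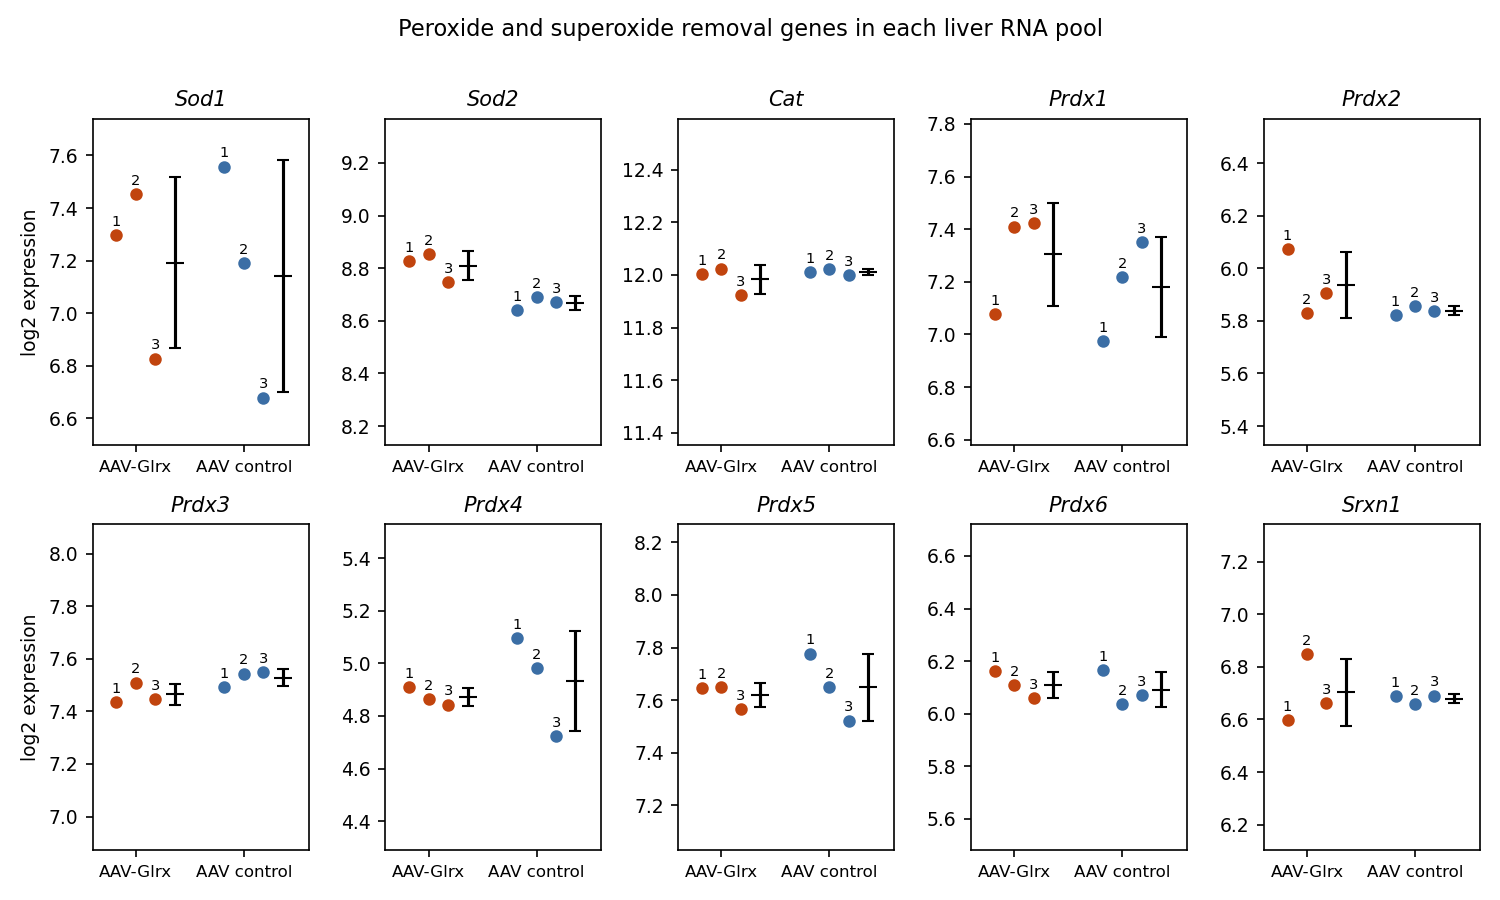
Log2 expression of each gene (y axis, every panel spanning the same range) in the 3 AAV-Glrx pools (left, orange) and the 3 AAV control pools (right, blue). Points are pools with their number, and bars are the mean and SD of the group. Sod2 is the panel in which the groups do not overlap, and Sod1 is the one with the widest spread.

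Sod2, the manganese superoxide dismutase of mitochondria, had 8.83, 8.85 and 8.75 in the AAV-Glrx pools, against 8.64, 8.69 and 8.67 in the AAV control pools. Each AAV-Glrx pool lay above each AAV control pool. The difference was 0.14 on the log2 scale (SE 0.082, n = 3 each), or 1.10-fold, with a 95% interval that ran from 1.03-fold lower to 1.26-fold higher. The unadjusted p was 0.120 and the adjusted p 0.872 (limma). Within a group, the pools had an SD of 0.043. The moderation kept the SE of every gene at 0.0776 or above, so this p rests largely on the spread of other genes. An exact two-sided permutation test gave p = 0.1, the smallest that 3 against 3 pools can give.

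Sod1, the copper-zinc superoxide dismutase of the cytosol, was the least settled of the 10. It had 7.30, 7.45 and 6.83 in the AAV-Glrx pools, against 7.56, 7.19 and 6.68 in the AAV control pools. The highest and the lowest pool were both AAV controls. The difference was 0.050 (SE 0.24), and the 95% interval ran from 1.42-fold lower to 1.52-fold higher. A change of either kind within these bounds was thus not excluded. Within a group, the pools had an SD of 0.388, which was above that of 98.8% of the 1831 genes with a mean level within 0.5 on the log2 scale. Leaving out AAV control 3 turned the difference to -0.18, and leaving out AAV control 1 made it 0.26. Sod3, the extracellular dismutase, differed by 0.0091 (adjusted p = 0.995, limma), and Ccs, the copper chaperone of Sod1, by 0.089 (adjusted p = 0.942, limma).

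Cat had 12.00, 12.02 and 11.92 in the AAV-Glrx pools, against 12.01, 12.02 and 12.00 in the AAV control pools. The 6 pools lay within 0.102 of each other, with AAV-Glrx 3 the lowest. The difference was -0.027 (SE 0.081, adjusted p = 0.978, limma), and the interval allowed at most a 1.16-fold lower or a 1.12-fold higher level. Cat ranked 7th or 8th from the top among all genes on every array. Near the top of an array's range a probe set can saturate, which would compress a difference, and saturation was not tested.

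**Figure D2:**
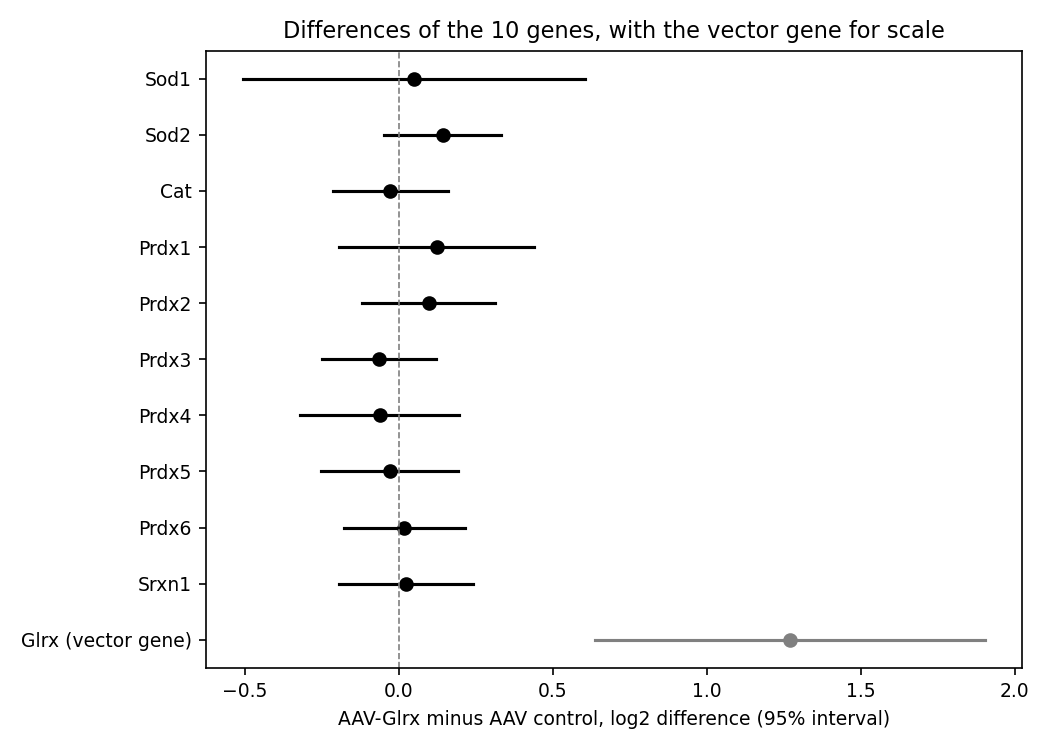
Difference in log2 expression, AAV-Glrx minus AAV control (x axis), for each of the 10 genes (black) and for Glrx (grey), with its 95% interval from limma. Each of the 10 intervals includes 0, the Sod1 interval is the widest at -0.50 to 0.61, and Glrx lies at 1.27.

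The 6 peroxiredoxins divided evenly by direction, with 3 means higher and 3 lower in AAV-Glrx pools and a median difference of -0.0056. For all 6 the groups overlapped. Of the cytosolic typical 2-Cys enzymes, Prdx1 had 7.08, 7.41 and 7.42 in the AAV-Glrx pools, against 6.97, 7.22 and 7.35 in the AAV control pools. Pool 1 was the lowest in each group. The difference was 0.12 (SE 0.14, adjusted p = 0.929, limma), with an interval from 1.14-fold lower to 1.36-fold higher. The SD between pools, 0.193, was above that of 90.6% of 1726 genes of similar level. Without AAV control 1 the Prdx1 difference was 0.020, and without AAV-Glrx 1 it was 0.24.

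Prdx2, the other cytosolic enzyme, had 6.07, 5.83 and 5.91 in the AAV-Glrx pools, against 5.82, 5.86 and 5.84 in the AAV control pools. AAV-Glrx 1 was the highest pool, and AAV-Glrx 2 lay within the range of the controls. The difference of 0.097 (SE 0.093, adjusted p = 0.917, limma) was 0.028 without AAV-Glrx 1. Prdx2 is abundant in red blood cells. Of 5 measured erythroid markers, 3 means were higher and 2 lower in AAV-Glrx pools, with a mean level of 3.46 to 3.85 in AAV-Glrx pools and 3.39 to 3.69 in AAV control pools, and 0 of 5 had an unadjusted p under 0.05. Their part in the Prdx2 values was not tested.

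Prdx3 is the typical 2-Cys peroxiredoxin of mitochondria. It had 7.44, 7.51 and 7.45 in the AAV-Glrx pools, against 7.49, 7.54 and 7.55 in the AAV control pools. Only AAV-Glrx 2 reached into the range of the controls. The difference was -0.064 (SE 0.080, adjusted p = 0.941, limma), and the interval ran from 1.19-fold lower to 1.09-fold higher. The mean of the mitochondrial peroxiredoxin was thus lower and that of the mitochondrial dismutase Sod2 higher, and neither difference passed the test.

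Prdx4, the peroxiredoxin of the endoplasmic reticulum, had 4.91, 4.86 and 4.84 in the AAV-Glrx pools, against 5.10, 4.98 and 4.72 in the AAV control pools. The AAV-Glrx pools lay inside the range of the controls, with an SD of 0.034 in AAV-Glrx pools and 0.19 in AAV control pools. The difference was -0.061 (SE 0.11, adjusted p = 0.962, limma). Prdx5, an atypical 2-Cys enzyme found in mitochondria, peroxisomes and cytosol, had 7.64, 7.65 and 7.57 in the AAV-Glrx pools, against 7.78, 7.65 and 7.52 in the AAV control pools. Here too the AAV-Glrx pools lay inside the range of the controls, and the difference was -0.029 (SE 0.096, adjusted p = 0.980, limma).

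Prdx6, the 1-Cys peroxiredoxin, which is recycled by glutathione rather than thioredoxin and also acts on phospholipids, had 6.16, 6.11 and 6.06 in the AAV-Glrx pools, against 6.16, 6.04 and 6.07 in the AAV control pools. The groups covered nearly the same range. The difference of 0.018 (SE 0.085, adjusted p = 0.988, limma) was the smallest in size of the 10, and the interval allowed a level up to 1.13-fold lower or 1.16-fold higher. Prdx6b, a close relative in the RefSeq annotation, was measured at a difference of -0.16 (adjusted p = 0.928, limma). Its means, 2.41 in AAV-Glrx pools and 2.57 in AAV control pools, lay below the median of all values at 3.929. Prdx1, Prdx2 and Prdx6 also have pseudogenes in RefSeq with no row of their own, and whether the probes bind these copies was not tested.

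Srxn1, which carries the NRF2 motif shown above, had 6.60, 6.85 and 6.66 in the AAV-Glrx pools, against 6.69, 6.66 and 6.69 in the AAV control pools. The controls lay close together between the AAV-Glrx pools, of which AAV-Glrx 2 was the highest. The difference was 0.023 (SE 0.094, adjusted p = 0.986, limma). Prdx1, the other gene with the motif, was highest in AAV-Glrx 3 at 7.42, close to its 7.41 in AAV-Glrx 2.

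**Figure D3:**
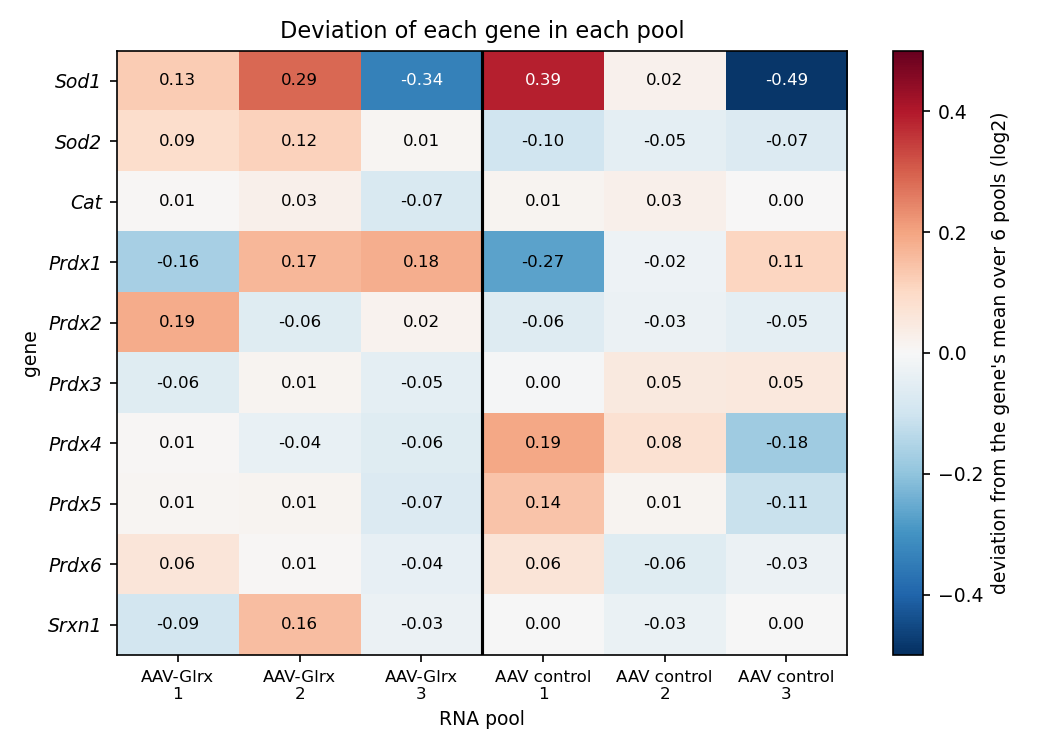
Deviation of each gene (rows) in each pool (columns, AAV-Glrx left of the line and AAV control right of it) from its own mean over the 6 pools, in log2 units, with the colour scale from -0.5 to 0.5. Sod1, Prdx4 and Prdx5 are high in AAV control 1 and low in AAV control 3, and Prdx1 runs the other way.

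The largest deviations were among pools of the same group. Sod1, Prdx4 and Prdx5 were each highest in AAV control 1 and lowest in AAV control 3 among the controls, by 0.39 above and 0.49 below its mean in the case of Sod1. Prdx1 was lowest in AAV control 1, at 0.27 below its mean. AAV control 1 held the highest value of 4 of the 10 genes and the lowest of 3, and AAV-Glrx 2 held the highest of 3 and the lowest of 0. At the other end, the SD between pools was 0.036 for Prdx3, 0.039 for Cat and 0.043 for Sod2, against a median of 0.139 over all genes, whose levels are mostly lower. For Prdx3 this was above the SD of only 4.51% of 1398 genes of similar level, and for Sod2 of 6.82% of 469.

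**Figure D4:**
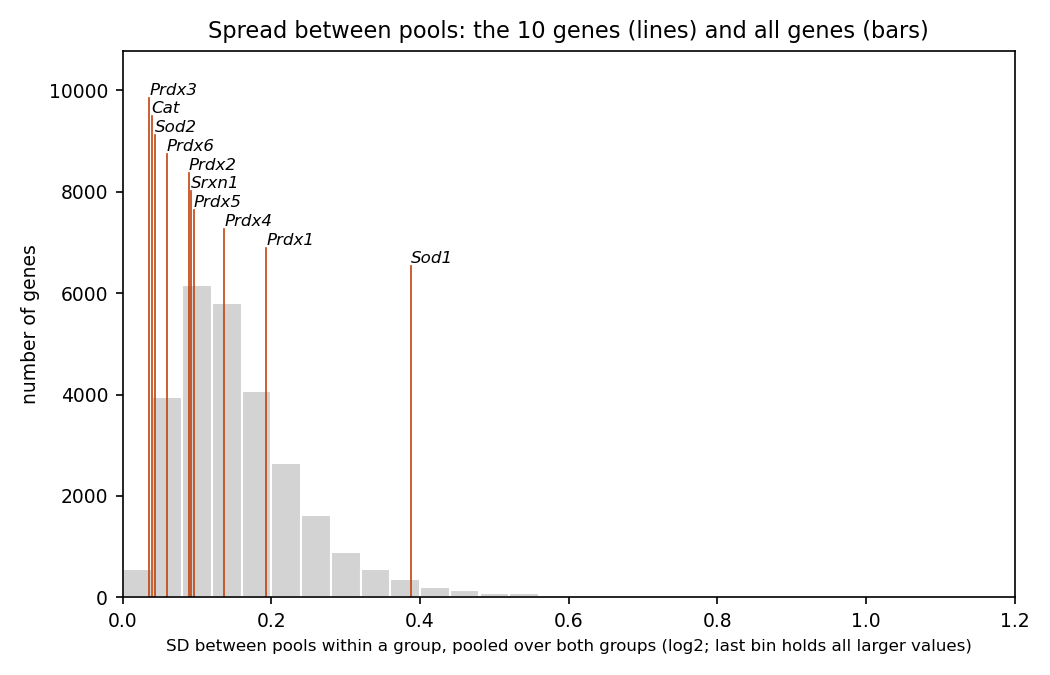
SD between pools within a group, pooled over both groups, in log2 units (x axis) for all 27381 genes (grey bars, number of genes on the y axis) and for the 10 genes (orange lines, whose heights carry no value). Prdx3, Cat and Sod2 lie at the left edge and Sod1 at 0.388 in the right tail.

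The partners that recycle these enzymes or share their substrates were given as a list of 21 genes of thioredoxins, glutaredoxins, glutathione peroxidases, sestrins and related proteins, among them Gsr, Sod3, Ccs and Park7. Apart from Glrx itself, 0 had an unadjusted p under 0.05 and 0 passed over all genes. The mean was higher for 12 and lower for 9, with a median difference of 0.0091. Txn1, the cytosolic thioredoxin that reduces Prdx1 and Prdx2, differed by -0.063 (adjusted p = 0.946, limma). Txnrd1, its reductase, differed by 0.0080 (adjusted p = 0.995, limma). After Glrx, the smallest p of the list belonged to Sesn3, a sestrin, with 7.30, 7.40 and 7.25 in the AAV-Glrx pools, against 7.67, 7.38 and 7.52 in the AAV control pools. These groups overlapped (difference -0.20, adjusted p = 0.859, limma). Gpx7, a peroxidase of the endoplasmic reticulum, followed at -0.14 (adjusted p = 0.888, limma).

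Enzymes that produce superoxide or hydrogen peroxide were more spread. Of 23 such genes, 10 means were higher and 13 lower in AAV-Glrx pools, and the median difference was -0.086. None passed over all genes, 2 had an unadjusted p under 0.05, both higher, and the groups did not overlap for 3 genes that were higher and 4 that were lower, against 10.9% of all genes in either direction. Hao1, the hydroxyacid oxidase that makes hydrogen peroxide from glycolate in liver peroxisomes, had 7.831, 8.005 and 7.870 in the AAV-Glrx pools, against 7.631, 7.496 and 7.639 in the AAV control pools. The difference was 0.31 (SE 0.092), or 1.24-fold, with an unadjusted p of 0.00986 and an adjusted p of 0.847 (limma). Acox3, a peroxisomal oxidase of branched acyl-CoA, had 6.59, 6.57 and 6.64 in the AAV-Glrx pools, against 6.24, 6.46 and 6.43 in the AAV control pools. Its difference was 0.22 (SE 0.092, adjusted p = 0.857, limma). Nox4, an NADPH oxidase that makes mainly hydrogen peroxide, differed by 0.19 (adjusted p = 0.858, limma), with no overlap of the groups.

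The 10 peroxisomal oxidases within this list, set apart after their values were seen, had 6 means higher and 4 lower. The peroxisome import list held Pex genes, which serve protein import, the route of catalase and these oxidases into the organelle. It also held Abcd3, a transporter in the peroxisome membrane that does not import proteins. The list had 7 of 10 means higher, a median difference of 0.064 and 0 with an unadjusted p under 0.05. Among these 10 genes the groups did not overlap for 2, against 10.9% of all genes in either direction. The 2 were Pex13, a membrane docking factor, at 0.14 (adjusted p = 0.879, limma), and Pex5, the import receptor that carries catalase, at 0.072 (adjusted p = 0.926, limma).

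The 6 subunits of the phagocyte NADPH oxidase, also set apart after their values were seen, had 5 means lower in AAV-Glrx pools and a median difference of -0.15, with 0 at an unadjusted p under 0.05. The groups did not overlap for 2 of the 6, against 10.9% of all genes in either direction. These were Rac2, at -0.19 (adjusted p = 0.859, limma), and Cyba, at -0.15 (adjusted p = 0.879, limma). The mean level of the 6 was 6.02, 6.12 and 6.25 in the AAV-Glrx pools, against 6.41, 6.17 and 6.20 in the AAV control pools, with AAV control 1 the highest and AAV-Glrx 1 the lowest. Markers of Kupffer cells and macrophages, which use this oxidase, had 6 of 6 means lower, with 0 at an unadjusted p under 0.05. Their mean level was 6.42, 6.80 and 6.73 in the AAV-Glrx pools, against 6.97, 6.65 and 6.71 in the AAV control pools, with the same highest and lowest pools. The lowest group mean among these markers was 4.48, that of Marco in AAV-Glrx pools, above the median of all values at 3.929, and their part in the oxidase values was not tested. In whole-liver RNA, fewer cells of a type and less RNA per cell cannot be told apart.

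Regulators and targets of NRF2, the list nearest to the control of Srxn1 and Prdx1, had 6 of 13 means higher, 7 lower and a median difference of -0.0089. None had an unadjusted p under 0.05 and none had groups without overlap. Hmox1, heme oxygenase-1, had 7.19, 7.61 and 7.41 in the AAV-Glrx pools, against 7.77, 7.50 and 7.71 in the AAV control pools. The difference was -0.26 (SE 0.13, adjusted p = 0.859, limma). Nqo1, a quinone reductase, differed by -0.14 (adjusted p = 0.891, limma), and Gclc, the catalytic subunit of the first enzyme of glutathione synthesis, by -0.11 (adjusted p = 0.913, limma). Genes of disulfide formation in the endoplasmic reticulum, where Prdx4 takes part, had 7 of 8 means higher, a median difference of 0.076, 0 with an unadjusted p under 0.05 and 0 without overlap. Txndc5 and P4hb, both disulfide isomerases, differed by 0.14 (adjusted p = 0.879, limma) and by 0.087 (adjusted p = 0.923, limma). Qsox1, a sulfhydryl oxidase, differed by 0.16 (adjusted p = 0.899, limma).

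**Figure D5:**
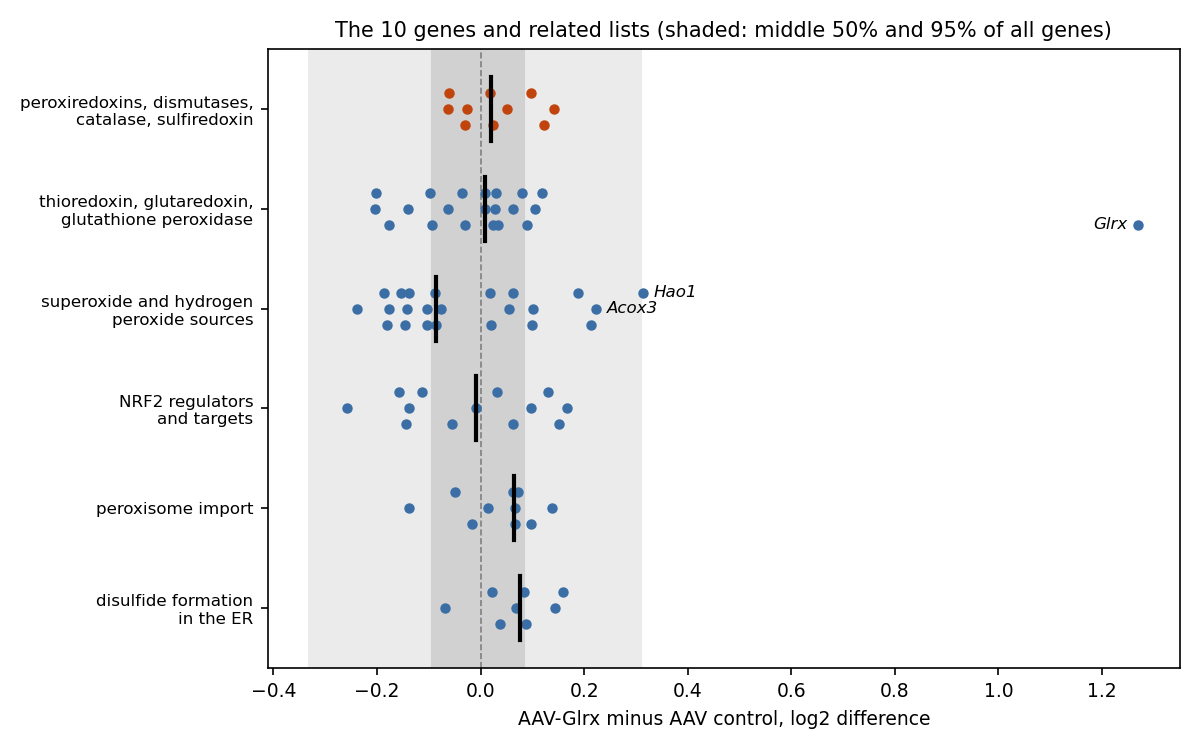
Difference in log2 expression, AAV-Glrx minus AAV control (x axis), of each gene (points) in the 10-gene set (orange) and in the 5 related lists (blue), with the median of each list (black bar). The shading gives the middle 50% (dark) and 95% (light) of all genes, and names mark the genes with an unadjusted p under 0.05. The 10 genes lie between -0.064 and 0.14, inside the light band of -0.33 to 0.31.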

How the data were processed

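The authors deposited log2 values, 1 per Entrez gene and array, which they had made from the probe intensities with the Robust Multiarray Average and Brainarray probe definitions (affy 1.61.0 under R 3.6.0, by the submitters' processing notes). Their genome build was not given in the sources used here. This method brings arrays to a common distribution, so a shift of most genes 1 way would not be seen, and low values understate a fold change. The number of arrays and the spread between pools limit the precision.

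Arrays were grouped by the labels, 3 AAV-Glrx and 3 AAV control. Symbols came from the platform annotation for 26794 genes and from RefSeq by Entrez ID for 564 more, and 23 stayed unnamed. Prdx5 and Prdx6 were among the 564, and since each is an older name of the other they were taken by Entrez ID. For all 27381 genes, limma 3.58.1 (R 4.3.3; lmFit, then eBayes) compared the groups with no covariate or filter, and genes were called at a Benjamini-Hochberg adjusted p under 0.1 over all of them. Intervals are at 95% from the moderated fit (7.79 degrees of freedom). The fit was tested on simulated data.

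The 10 genes and the related lists were chosen with earlier results of these data known. The named genes are all 10, Glrx, and of each list the 3 genes with the smallest unadjusted p and any below 0.05. From the cell type marker lists only those below 0.05 are given, and 1 gene that the rule names is not reported here. Sod3, Ccs, Gsr, Park7, Txn1, Txnrd1, Cyba, Rac2, Abcd3, Marco, Prdx6b and Zbtb16 were named after their values were seen. The lists hold 120 other symbols, of which 119 were measured. Alternatives were an intensity trend or a robust prior, arrays centred or quantile-normalized again, a filter on low genes, array weights, a replicate block, an unadjusted p under 0.1 and leaving out each array.

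The labels do not say that pools of the same number are paired. The deviations of same-numbered arrays from their group means correlated at -0.0361, -0.171 and 0.0205. Of the 3 AAV-Glrx arrays, 0 correlated best with the AAV control array of the same number.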

Additional observations from a re-analysis of the deposited data

How the results depend on the processing

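None of the 10 genes passed under any alternative, and outside the leave-one-out fits their lowest adjusted p was 0.744 (Sod2, genes above the median level only, limma). With an intensity trend 1 of the 10, Sod2, had an unadjusted p under 0.05 (0.0383, or 0.830 after adjustment, limma), against 5.96% of all genes. The count of genes without overlap was 2 with arrays centred on their median (Sod2 and Prdx2, against 11.2% of all genes), 2 after another quantile normalization (Sod2 and Prdx3, against 11.1%), and 1 to 3 when an array was left out (3 without AAV-Glrx 2, and 2 without AAV-Glrx 1, AAV control 1 or AAV control 3), where 20.4% to 21.9% of all genes do not overlap. Over all genes, 0 passed after another quantile normalization, 0 with the replicate block and 0 to 2 when an array was left out (2 without AAV control 1, 1 without AAV-Glrx 2, and 0 without any of the others). With the replicate block, Sod2 had an unadjusted p of 0.183, and the block changed no call of the 10 genes. Leaving out 1 array gave a median difference of -0.046 to 0.044, below 0 without AAV-Glrx 1, AAV-Glrx 2 or AAV control 3. The direction turned for 6 genes, whose differences then ran from -0.18 to 0.26 for Sod1, -0.047 to 0.0034 for Cat, -0.17 to 0.020 for Prdx4, -0.093 to 0.035 for Prdx5, -0.0084 to 0.055 for Prdx6 and -0.049 to 0.075 for Srxn1. Sod2 (0.12 to 0.17), Prdx1 (0.020 to 0.24), Prdx2 (0.028 to 0.15) and Prdx3 (-0.087 to -0.049) kept theirs. The causes were not tested.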
